A study of Mus musculus with 7 samples.

Results

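The 26S proteasome is the complex that degrades proteins tagged with ubiquitin. Its 20S core is a barrel of alpha and beta rings whose inner beta subunits cut the substrate, and its 19S cap recognizes, unfolds and feeds the substrate into the barrel. Its genes are transcribed in nearly all cells, and an inducible set of beta subunits, which immune and interferon-treated cells make, changes the peptides that are released for display on MHC class I. In the raw counts of nascent RNA from GFI1+ cells of the intra-aortic hematopoietic clusters (IAHC), in which the first hematopoietic stem cells form, 50 of 55487 genes were protein-coding and had a symbol that begins with Psma, Psmb, Psmc, Psmd, Psme, Psmf or Psmg. They code for the 7 alpha subunits of the ring and the testis alpha subunit Psma8, for 7 standard beta subunits and 4 inducible or thymic ones, for 6 ATPases and 11 other subunits of the 19S cap, for 3 chaperones of cap assembly and 4 of core assembly, for 5 genes of activator families and for the inhibitor Psmf1. Psmc3ip carries the prefix but codes for a partner of Psmc3 that acts in meiotic recombination, and 4 pseudogenes were left out.

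All 7 libraries came from cells of the CD1/Gf1+ strain at E11.5, sorted from the aorta-gonad-mesonephros region (AGM) as CD31+cKIT+GFI1+ and held overnight in compound E (compE), a γ-secretase inhibitor that blocks Notch activation. Sets of 300 to 400 cells were then labelled for 4 hours with the uridine analog EU after a washout with DMSO (washout 1, 2 and 3), with compE again (compE 1 and 2), or with recombinant Fc-JAG1, a Notch ligand (Fc-JAG1 1 and 3). The washout was therefore no untreated control, since it too had spent the night in compE. The amounts are uncertain, as compE stands at 10 mM and Fc-JAG1 at 4 mg/ml in the labels, while the study's methods give both in micro units. The number of a library marks an embryo in the labels and a biological sample in the methods, which describe cells pooled from several embryos, and Fc-JAG1 2 was not analysed here. Libraries held 21652927 to 33974693 counts, of RNA that was amplified before sequencing without molecular identifiers, so intervals of these counts would cover counting error only. Kit and Runx1, which mark these clusters, were read in all 7 libraries at 6381 to 19331 and 16525 to 51298 counts. Gfi1, the gene behind the reporter used in the sort, reached 10 counts in 3 of 7 libraries, and Pecam1, which encodes CD31, was at 18 in washout 1 and 11 in Fc-JAG1 3 against 1186 or more in the others. Cdh5, an endothelial gene, was at 139 counts in washout 1 and 0 to 3 in the other 6 libraries, and Ptprc, which encodes CD45, was at 3 in washout 3 and 2183 or more in the others. The cells carry the label of hematopoietic stem cells. In counts scaled to the library total (plain CPM), 7 macrophage markers summed to 91.7 in compE 1, 135 in Fc-JAG1 3 and 373 to 565 in the other 5, with 2 to 7 of them at 10 counts or more and C1qa at 0 in all but washout 2. The 6 erythroid markers summed to 1.48 to 400 plain CPM with Alas2 at 0 throughout, and mesenchymal, neural and epithelial lists did not pass 15.7 plain CPM in any library. The part of these markers in the results was not tested. All other CPM below are scaled to library size and composition (TMM).

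In each library most proteasome genes had 10 counts or more, though 23 of the 50 reached that in all 7. Of the 50 genes, 45 passed the authors' filter, which asks for 10 counts or more in 2 or more replicates of a condition, as did 10311 genes in all. At least 10 counts were found for 33, 45 and 41 of the 50 genes in washout 1, 2 and 3, for 40 and 48 of them in the compE libraries, and for 47 and 40 in the Fc-JAG1 libraries. Each condition held a library with 45 or more of these genes and another with 41 or fewer. The median count of the 45 genes that passed the filter was 1117, 6008 and 6256 in the washout, 2970 and 5569 with compE, and 6199 and 2904 with Fc-JAG1. The median of all tested genes was 20, 1473 and 412, then 333 and 1685, then 1566 and 215. In these bulk samples fewer cells and less RNA per cell cannot be told apart.

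**Figure D1:**
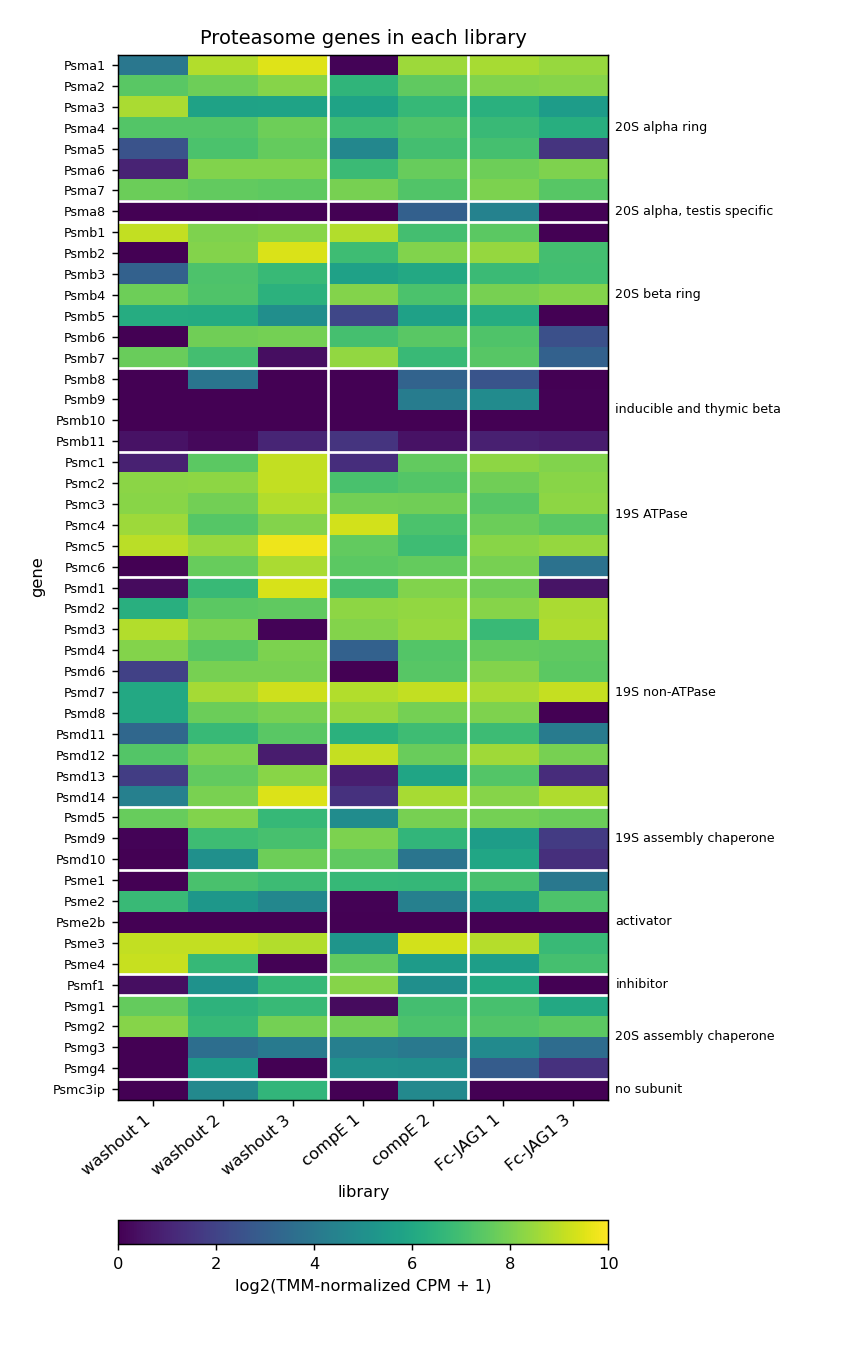
TMM-normalized CPM on a log2 scale, log2(CPM + 1), for the 50 proteasome genes (rows, grouped by role) in the 7 libraries (columns, grouped by condition). Dark cells are scattered over washout 1, washout 3, compE 1 and Fc-JAG1 3, and the rows of Psmb10 and Psme2b are dark throughout.

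Which genes fell under 10 counts differed from library to library. Of the 45 that passed the filter, 12 were under 10 counts in washout 1 (26.7%), 1 in washout 2 (2.22%), 4 in washout 3 (8.89%), 5 in compE 1 (11.1%), none in compE 2, 1 in Fc-JAG1 1 (2.22%) and 5 in Fc-JAG1 3 (11.1%). Among all tested genes these shares were 43.8%, 5.85%, 32.0%, 28.9%, 7.56%, 9.54% and 30.1%. In each library a smaller share of the proteasome genes than of all tested genes was under 10 counts. Washout 1 was short of Psmb2, Psmb6, Psmb11, Psmc6, Psmd1, Psmd9, Psmd10, Psme1, Psmf1, Psmg3, Psmg4 and Psmc3ip, which belong to nearly every role in the complex. Washout 3 was short of Psmb7, Psmd3, Psme4 and Psmg4. CompE 1 was short of Psma1, Psmd6, Psme2, Psmg1 and Psmc3ip. Fc-JAG1 3 was short of Psmb1, Psmb5, Psmd8, Psmf1 and Psmc3ip. Between any pair of libraries at most 2 of the 45 were low in both. Psmc3ip, which is no subunit, was the tested member missing most often, with 905 counts in washout 2, 2645 in washout 3, 969 in compE 2 and 0 in the other 4. At least 10 counts in all 7 libraries were found for 23 of the 45 (51.1%), against 29.4% of tested genes, and 18 more were missing from a lone library.

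**Figure D2:**
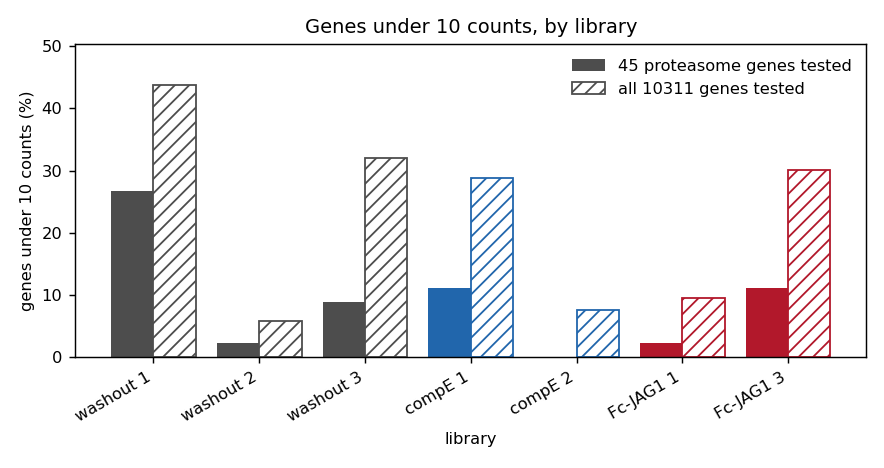
Share of genes under 10 counts (vertical axis, percent) in each library (horizontal axis) for the 45 proteasome genes tested (filled bars) and all 10311 genes tested (hatched bars). The filled bar is the lower of the pair in all 7 libraries, and both are highest in washout 1, at 26.7% and 43.8%.

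Proteasome genes took 0.522%, 0.979% and 1.02% of all counts in washout 1, 2 and 3, 0.620% and 0.877% in the compE libraries, and 0.940% and 0.586% in those of Fc-JAG1. The 3 conditions overlapped in this share, and the lowest library of each condition was among those with more genes under 10 counts. The 11 cap subunits without ATPase activity took the largest part in 6 of 7 libraries, and the exception was washout 1, where the ATPases took 0.118% and the other cap subunits 0.0912%.

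**Figure D3:**
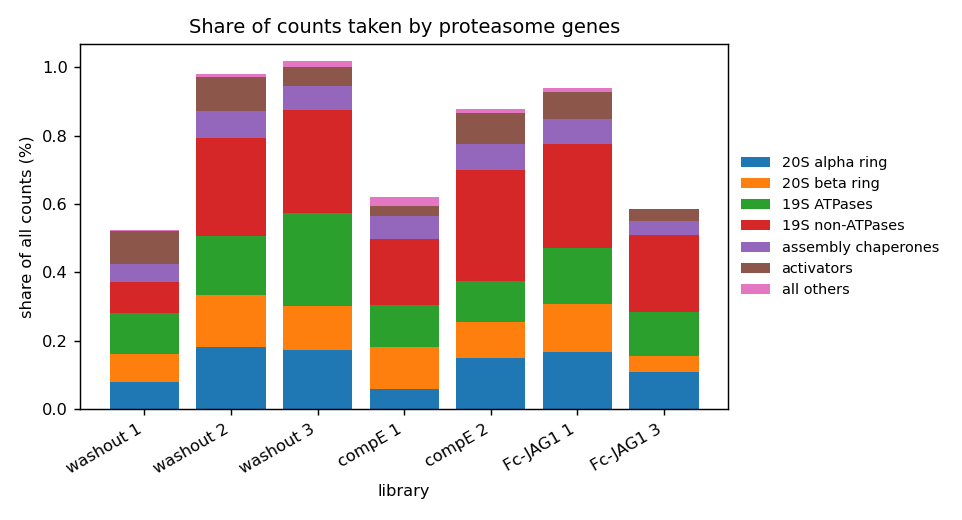
Share of all counts (vertical axis, percent) taken by proteasome genes in each library, stacked by role. The totals run from 0.522% in washout 1 to 1.02% in washout 3, and the ranges of the 3 conditions overlap.

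The alpha ring forms the outer gate of the core. Its 7 genes all reached 10 counts in 6 libraries, and in compE 1 all but Psma1 did. Psma7 was among the steadiest, at 3688, 6938 and 5057 counts in the washout, 6246 and 6034 with compE, and 9407 and 3931 with Fc-JAG1. That is 156 to 258 CPM, and the conditions overlapped. Psma4 had 2751, 5669 and 6267 counts in the washout, 2970 and 5776 with compE, and 4008 and 1776 with Fc-JAG1, and stayed between 75.2 and 223 CPM. In CPM its washout libraries (157 to 223) were above those of compE (117 and 149), which were above those of Fc-JAG1 (110 and 75.2). This order depends on the TMM scaling, with a TMM factor of 0.8055 in washout 1. Psma1 stood at the other end, with 249, 16463 and 20219 counts in the washout, 2 and 14330 with compE, and 14868 and 8284 with Fc-JAG1. The gene was thus near 0 in compE 1 and among the highest in compE 2. Psma2 had 3014, 8060 and 8113 counts in the washout, 2363 and 7342 with compE, and 10107 and 6855 with Fc-JAG1, where both libraries passed those of compE in CPM. Psma6 had 17 counts in washout 1 and 2801 to 9918 elsewhere. Psma5 was at 85 in washout 1 and 43 in Fc-JAG1 3 against 595 to 5568 elsewhere. Psma8, the alpha subunit of the testis, had 288 counts in compE 2 and 749 in Fc-JAG1 1 and at most 1 in the other libraries.

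The catalytic sites of the standard core are carried by Psmb6, with caspase-like activity, Psmb7, with trypsin-like activity, and Psmb5, with chymotrypsin-like activity. Psmb6 had 0, 8151 and 6763 counts in the washout, 3292 and 6645 with compE, and 5477 and 103 with Fc-JAG1. Psmb7 had 3636, 4575 and 8 in the washout, 8477 and 4162 with compE, and 6199 and 177 with Fc-JAG1. Psmb5 had 1249, 2516 and 845 in the washout, 84 and 2008 with compE, and 2642 and 0 with Fc-JAG1. All 3 had 2008 counts or more in washout 2, compE 2 and Fc-JAG1 1. In the other libraries the low gene differed, with Psmb6 at 0 in washout 1, Psmb7 at 8 in washout 3, Psmb5 at 84 in compE 1, and all 3 at 177 or fewer in Fc-JAG1 3. Of the beta subunits that cut no peptide, Psmb4 had 3782, 5502 and 2366 counts in the washout, 7202 and 5477 with compE, and 8999 and 6631 with Fc-JAG1. In CPM its Fc-JAG1 libraries (247 and 281) were above those of the washout (84.3 to 220), and the compE libraries were at 141 and 285. Psmb3 had 133 counts in washout 1 and 1310 to 5360 elsewhere. Psmb1 ran from 4974 to 11763 with 0 in Fc-JAG1 3, and Psmb2 from 2987 to 19253 with 0 in washout 1.

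The inducible counterparts were read in few libraries. Psmb8, which replaces Psmb5, had 496 counts in washout 2, 311 in compE 2 and 185 in Fc-JAG1 1, and 0 in the other 4. Psmb9, which replaces Psmb6, had 679 in compE 2 and 1007 in Fc-JAG1 1, and at most 1 in the other 5. The libraries with counts of these genes were among the 3 that had the fewest tested genes under 10 counts, and each condition held such a library. Neither gene passed the filter, so neither was tested. Psmb11, the thymic form, had 6 to 46 counts.

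Psmb10, which replaces Psmb7, had 0 counts in all 7 libraries. In GENCODE M21 all of its exon bases (100%) lie under Gm16156 on the opposite strand. The activator gene Psme2b, also at 0 throughout, is covered in full by genes on its own strand. Reads that fall on 2 genes are dropped by featureCounts unless strand or another setting separates them, and the setting used was not given in the sources used here. Of 785 protein-coding genes covered in full from the opposite strand only, 744 (94.8%) were at 0 in all 7 libraries, against 3077 of 14103 (21.8%) with no overlap. Of those covered in full on the same strand, as Psme2b is, 505 of 605 (83.5%) were at 0. The 0 of Psmb10 and Psme2b can thus not be read as absent transcription. The exons of Psmg3 (83.5%, same strand), Psmb8 (55.5%), Psma3 (54.7%), Psmd9 (40.6%) and Psmc3ip (21.2%) were also shared in part. Smaller shares were found for other members, among them Psmc3 (15.7%), Psmb5 (12.1%, same strand), Psmb7 (11.8%) and Psmd13 (10.1%). The counts of all these genes are uncertain.

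**Figure D4:**
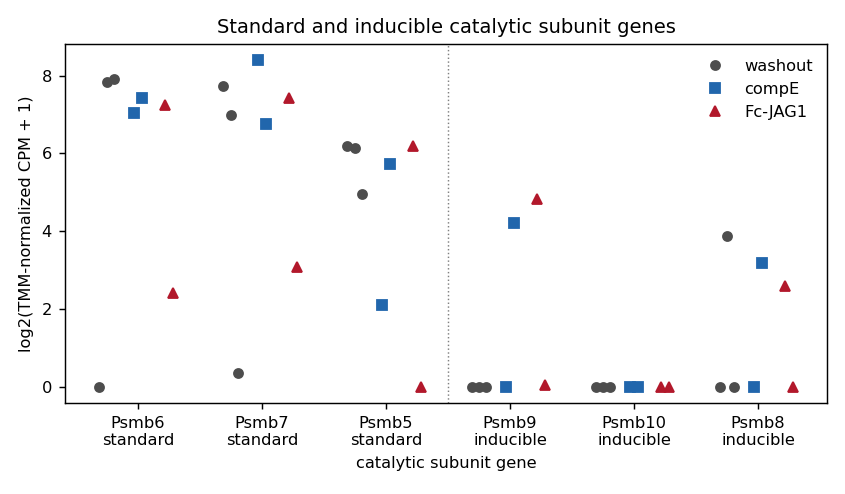
log2(TMM-normalized CPM + 1) of the standard catalytic subunit genes (left of the dotted line) and their inducible counterparts (right) in washout (circles), compE (squares) and Fc-JAG1 (triangles) libraries, a point for each library. The standard genes sit mostly at about 5 to 8 with a few points near 0, and the inducible genes sit at 0 in most libraries.

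The 6 ATPases of the cap form the ring that unfolds the substrate. Psmc2, Psmc3, Psmc4 and Psmc5 were at 3479 counts or more in every library. Psmc2 had 308, 313 and 535 CPM in the washout, 138 and 160 with compE, and 229 and 300.2 with Fc-JAG1. The washout was highest, compE lowest and no group overlapped another. The gap between washout and Fc-JAG1 depends on the TMM scaling, as washout 1, at 308 CPM, had a TMM factor of 0.8055. Psmc5 had 8661, 12780 and 23835 counts in the washout, 4849 and 4512 with compE, and 10939 and 8020 with Fc-JAG1, and stood in the same order in CPM. Per kilobase of exon it had the highest median of all members, at 244 CPM. Behind Psmc5 came Psmb2 at 228, Psmd7 at 202 and Psma6 at 179 CPM per kilobase, whose ranges over libraries overlapped. The study counted reads with the gene as feature, so counts may hold intron reads that the exon length leaves out. This ranking by length is therefore uncertain. Psmc1 had 15, 6342 and 15057 counts in the washout, 37 and 7441 with compE, and 11411 and 6560 with Fc-JAG1, low in both libraries of embryo 1 outside Fc-JAG1. Psmc6 was at 0 in washout 1 and 295 in Fc-JAG1 3 against 4489 to 11886 elsewhere.

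Among the other cap subunits, Psmd2, a scaffold of the base, had 1358, 6469 and 5259 counts in the washout, 8048 and 12743 with compE, and 10641 and 9892 with Fc-JAG1. In CPM its washout libraries (78.9, 179 and 187) lay below those of compE (318 and 329) and Fc-JAG1 (292 and 419) with no overlap. Psmd14, the deubiquitinase of the lid, was at 333 counts in washout 1 and 42 in compE 1 against 9039 to 19828 elsewhere. Psmd4, a ubiquitin receptor, was at 193 in compE 1 and 4372 to 7269 elsewhere. Psmd7, the partner of Psmd14, had 1099, 14439 and 16957 counts in the washout, 11551 and 20986 with compE, and 15557 and 13239 with Fc-JAG1. Psmd13 was at 20 to 43 counts in washout 1, compE 1 and Fc-JAG1 3 and at 2253 to 8277 in the other 4. Of the cap chaperones, Psmd9 had 1, 4200 and 3776 counts in the washout, 6565 and 3636 with compE, and 1674 and 56 with Fc-JAG1, with both compE libraries above both of Fc-JAG1.

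The activators Psme1 and Psme2, which cap the core in place of the 19S particle, reached 4986 and 3472 counts at most. Psme2 had 1879, 1387 and 670 counts in the washout, 1 and 747 with compE, and 1509 and 3472 with Fc-JAG1, lowest in both compE libraries in CPM. Psme3, a nuclear activator, had 9241, 19358 and 13072 counts in the washout, 908 and 24551 with compE, and 17219 and 2589 with Fc-JAG1. Psme4 had 9871, 3680 and 1 in the washout, 4893 and 1724 with compE, and 1746 and 3092 with Fc-JAG1, and the washout libraries spanned those of both other conditions. Psmf1, the inhibitor, had 5, 1192 and 2854 counts in the washout, 7289 and 1173 with compE, and 2393 and 0 with Fc-JAG1. Of the core chaperones, Psmg2 was steady at 104 to 287 CPM, while Psmg4 had 0, 1576 and 0 counts in the washout, 808 and 1192 with compE, and 239 and 40 with Fc-JAG1.

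With compE continued, no proteasome gene passed the main test against the washout. The edgeR quasi-likelihood test with the embryo number as a block called 0 of 10311 genes (0%) at an adjusted p of 0.05 and 0 of the 45 members, and an unadjusted p under 0.05 was found for 273 genes and for 0 members. Psmc5, an ATPase of the cap, had the smallest p, with 503, 354 and 849 CPM in the washout and 192 and 116 CPM with compE. Its log2 fold change was −1.57 with a SE of 1.19 and an adjusted p of 1. Psme3 had −2.05 (SE 1.64) and Psma1 −2.34 (SE 1.99), both with the same adjusted p of 1. These SE, derived from the F statistic of the test, are of the size of the fold changes. The Wald test of DESeq2, the tool of the study, called 962 genes (9.33%) and 1 of the 45 members (2.22%). That was Psmg4, a chaperone of core assembly, with a DESeq2 log2 fold change of 8.16 (SE 2.61, adjusted p = 0.0260) and an edgeR value of 2.05 (SE 2.80). Of the washout libraries 2 were at 0 counts. Without washout 2 the value was 11.03 and called. Without compE 2 it was 11.05 with an adjusted p of 0.0162, but too few replicates were left for the count minimum. Without any of the other 5 libraries the adjusted p missed the threshold, at −0.56 without compE 1, 2.89 without washout 1 and 4.85 to 4.99 for the remaining 3. Groups did not overlap for 1821 tested genes (17.7%) and for 6 members (13.3%), with Psmd2 higher and Psmc5, Psmc2, Psmd4, Psma4 and Psme2 lower with compE. Such counts, here and below, were made in TMM CPM only. The members' median log2 fold change was −0.11 and that of all tested genes −0.10.

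With Fc-JAG1 the main test again called 0 of 10311 genes (0%) and 0 members, with 526 genes and 0 members at an unadjusted p under 0.05. Psmb1, a beta subunit without a catalytic site, came first, with 535, 267 and 296 CPM in the washout and 176 and 0 CPM with Fc-JAG1. Its edgeR log2 fold change was −3.95 (SE 2.04, adjusted p = 0.830). DESeq2 called 2108 genes (20.4%) and 4 of the 45 members (8.89%), a share below that of all tested genes. Psmb1 was lower by DESeq2, at −5.19 (SE 1.73, adjusted p = 0.0178), and the call was lost without washout 3 (−2.53) or without Fc-JAG1 3 (−2.46), the library at 0 counts, and kept without any of the other 5. Psmc1 was higher, at 5.06 (SE 1.62, adjusted p = 0.0133), beside 4.37 (SE 2.74, adjusted p = 0.843) by edgeR. Its DESeq2 value was 7.63 and 7.69, and called, without washout 3 and Fc-JAG1 3. It was not called without any of the other 5, at −0.98 without Fc-JAG1 1, 1.90 without washout 1 and 3.35 to 3.39 for the remaining 3. Psmd12, a lid subunit, had 2767, 9377 and 19 counts in the washout and 13671 and 5873 with Fc-JAG1. It was at 3.65 (SE 2.46, adjusted p = 0.868) by edgeR and higher by DESeq2 at 4.23 (SE 1.51, adjusted p = 0.0288). The value was 8.49, and called, without Fc-JAG1 1. It came to −0.07 without washout 3 and −0.01 without Fc-JAG1 3, while without washout 1, washout 2 or either compE library it stayed at 4.45 to 5.29 with adjusted p of 0.126 to 0.208. Psmd3, another cap subunit, had 7936, 9373 and 2 counts against 3947 and 10670. Its edgeR log2 fold change was 2.78 (SE 4.16). It was higher by DESeq2 at 4.79 (SE 1.86, adjusted p = 0.0492), and this value came to −2.55 without washout 3 and −2.48 without Fc-JAG1 3. It was called without washout 1 or Fc-JAG1 1, and stayed at 4.77 to 4.82 with adjusted p of 0.203 to 0.239 without washout 2 or either compE library. Psmd12 and Psmd3 were both near 0 in washout 3. Psma1, second by edgeR at 3.27 (SE 1.94, adjusted p = 0.836), was not called by DESeq2 (adjusted p = 0.155). Groups did not overlap for 1787 tested genes (17.3%) and for 6 members, with Psmd2 and Psmb4 higher and Psmc5, Psmc2, Psma4 and Psmb1 lower. Both comparisons share the washout libraries.

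Between Fc-JAG1 and compE the main test called 0 genes (0%) and 0 members, with 289 genes and 1 member at an unadjusted p under 0.05. That member was Psma1, at 0.0791 and 370 CPM with compE and 408 and 351 CPM with Fc-JAG1, with an edgeR log2 fold change of 5.61 (SE 2.52, adjusted p = 1). DESeq2 called 1175 genes (11.4%) and 3 members (6.67%), all higher with Fc-JAG1. Psma1 was at 7.52 (SE 1.90, adjusted p = 0.00250), Psmd6, a lid subunit with 0 and 6586 counts with compE and 10156 and 4150 with Fc-JAG1, at 9.55 (SE 2.51, adjusted p = 0.00365) and Psmc1 at 5.87 (SE 1.94, adjusted p = 0.0265). Beside Psma1, edgeR gave 6.01 (SE 3.32) for Psmd6 and 5.36 (SE 2.94) for Psmc1. All 3 had at most 37 counts in compE 1 and 6586 or more in compE 2. Without compE 1 none of the 3 passed the threshold, and Psma1 came to 1.88, Psmd6 to 3.28 and Psmc1 to 3.32. Without Fc-JAG1 1 none passed either, at 2.94, 3.85 and −1.20. Without Fc-JAG1 3, Psma1 was at 8.99 (adjusted p = 0.0207) and Psmd6 at 11.11 (adjusted p = 0.00847), but too few replicates were left for the count minimum. Psmc1 was called without washout 3 or Fc-JAG1 3, and stood at 4.63, 6.40 and 6.36 with adjusted p of 0.198 to 0.241 without washout 1, washout 2 and compE 2. Groups did not overlap for 3135 tested genes (30.4%) and for 12 members (26.7%), with Psma2, Psma6, Psmb3, Psmc1, Psmc2, Psmc5, Psmd4, Psmd6 and Psme2 higher and Psma4, Psmd9 and Psmg4 lower with Fc-JAG1. With no replicate block, DESeq2 called 0 members and 190 of all tested genes (1.84%) in this comparison, 0 members and 325 genes (3.15%) for compE, and 1 member, Psmc3ip, and 388 genes (3.76%) for Fc-JAG1 against the washout. In these fits the log2 fold changes were 1.29 for Psma1, 1.65 for Psmd6 and 1.86 for Psmc1 in this comparison. For Fc-JAG1 against the washout they were −2.54 for Psmb1, 0.21 for Psmc1, 0.96 for Psmd12 and −0.028 for Psmd3. For compE against the washout Psmg4 was at 1.29.

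**Figure D5:**
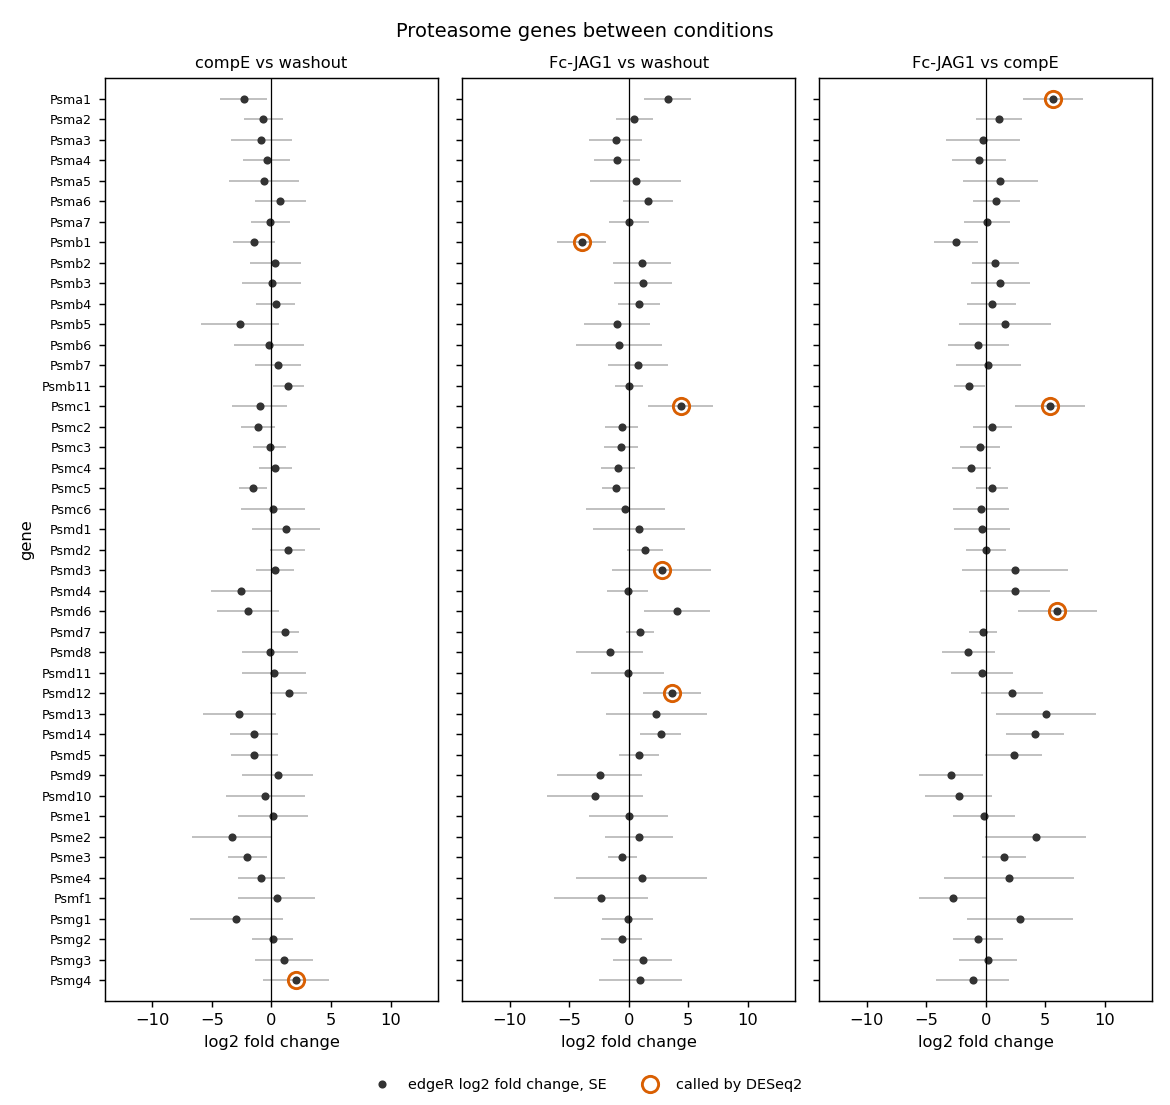
edgeR log2 fold change (horizontal axis, points) with its SE (bars) for the 44 tested proteasome genes other than Psmc3ip (vertical axis) in each comparison, with members called by DESeq2 circled. The circled genes are 1, 4 and 3, and the bars of most genes cross 0.

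The embryo pairs differed in direction. From washout 1 to compE 1, 25 of the 45 members were higher in log2 CPM and 20 lower, while from washout 2 to compE 2, 14 were higher and 31 lower. From washout 1 to Fc-JAG1 1, 29 were higher and 15 lower, and from washout 3 to Fc-JAG1 3, 11 were higher and 34 lower. Among all tested genes 56.7%, 50.0%, 61.3% and 48.8% were higher in these pairs. In both compE pairs 8 members (17.8%) were higher and 14 (31.1%) lower, against 29.0% and 22.3% of all tested genes. In both Fc-JAG1 pairs 7 members (15.6%) were higher and 11 (24.4%) lower, against 30.3% and 17.6%. Among the members lower in both compE pairs were Psmc2, Psmc3 and Psmc5, and among those higher was Psmd2. The pairs of embryo 1 share washout 1. Scaling moves such counts. Under TMM, the DESeq2 size factors and plain library totals, all tested genes had a median log2 fold change of 0.44, 0.07 and 0.71 for Fc-JAG1 against the washout. The members' median was 0.03, −0.30 and 0.26 under these scalings in turn, each below that of all tested genes.

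Of 28 further genes of the pathway with a row of counts, such as the subunits Sem1 and Adrm1, the core chaperone Pomp, ubiquitin genes and shuttle factors, 26 were tested and edgeR called 0 in each comparison. DESeq2 called 0 with compE. With Fc-JAG1, Ubqln1, a shuttle factor, was higher than in the washout. Nfe2l1, the transcription factor that raises proteasome genes when the proteasome is inhibited, was lower than in the washout. Over all tested genes DESeq2 called 9.33% with compE, 20.4% for Fc-JAG1 against the washout and 11.4% for Fc-JAG1 against compE. Ubqln1 had 0, 4897 and 6828 counts in the washout, 4 and 6427 with compE, and 6418 and 5363 with Fc-JAG1. Its DESeq2 log2 fold change was 8.36 against the washout (SE 2.21, adjusted p = 0.00208) and 8.52 against compE (SE 2.64, adjusted p = 0.0168). The edgeR values were 4.45 (SE 3.02, adjusted p = 0.871) and 5.42 (SE 3.49) in turn. Nfe2l1 had 5663, 4729 and 11485 counts in the washout, 10587 and 1355 with compE, and 2827 and 1459 with Fc-JAG1. Its DESeq2 log2 fold change against the washout was −3.08 (SE 0.953, adjusted p = 0.0104), beside −2.74 (SE 1.82, adjusted p = 0.861) by edgeR. Fits without a library are not given for the further pathway genes. Pomp, needed to build the core, had 3597 to 6883 counts in all 7 libraries.

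RefSeq promoter windows, 250 bases before to 50 after a gene start on GRCm38.p6, were at hand for 42 of the 50 members (45 windows). They were searched on both strands for TGACNNNGC, the core of the element that NFE2L1 and NFE2L2 bind, for CCAAT, for CACGTG and for CCGGAAG, an ETS family core. TGACNNNGC lay in 6 of the 45 windows (13.3%) against 12.4% of all windows, CCAAT in 33.3% against 37.4%, CACGTG in 8.89% against 7.15%, and CCGGAAG in 16 windows (35.6%) against 8.86% of all windows and 18.2% of the windows of tested genes. None of these motifs contains another, though they can overlap in part, and a match is a description of the letters. The CCGGAAG count was read after the results were known. The 250 bases before the start are shown for Psmb5 and Psmb6, the catalytic genes whose windows hold TGACNNNGC. Those of Psmc1 and Psmd6, among the members called by DESeq2 whose windows hold CCGGAAG, are shown too. This choice was made after the matches were seen. Psmd12, also called by DESeq2, holds CCGGAAG and TGACNNNGC and is not shown. Psma1 and Psmg4, also called, have windows without CCGGAAG. Psmb1 and Psmd3, also called, had no window. Capitals mark TGACNNNGC, CCAAT or CCGGAAG on either strand, and each sequence runs 5′ to 3′ along the strand of the gene. Psmb5 is taken from chr14:54617996-54618245 (minus strand), Psmb6 from chr11:70525107-70525356 (plus strand), Psmc1 from chr12:100109952-100110201 (plus strand) and Psmd6 from chr14:14120946-14121195 (minus strand).
Psmb5: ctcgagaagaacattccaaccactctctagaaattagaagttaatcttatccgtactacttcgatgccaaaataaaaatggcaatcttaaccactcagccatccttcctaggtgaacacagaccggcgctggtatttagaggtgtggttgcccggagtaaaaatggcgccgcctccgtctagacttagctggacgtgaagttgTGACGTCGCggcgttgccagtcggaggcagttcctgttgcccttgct
Psmb6: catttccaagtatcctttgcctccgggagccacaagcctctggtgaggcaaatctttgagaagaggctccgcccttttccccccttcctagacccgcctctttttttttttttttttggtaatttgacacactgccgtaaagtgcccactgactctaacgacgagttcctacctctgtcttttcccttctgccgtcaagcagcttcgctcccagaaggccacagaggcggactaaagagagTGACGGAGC
Psmc1: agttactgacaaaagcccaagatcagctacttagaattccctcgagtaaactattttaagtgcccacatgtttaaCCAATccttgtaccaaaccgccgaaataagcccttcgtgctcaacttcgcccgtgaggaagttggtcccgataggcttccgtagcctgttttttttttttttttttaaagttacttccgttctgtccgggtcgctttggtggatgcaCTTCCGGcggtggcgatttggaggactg
Psmd6: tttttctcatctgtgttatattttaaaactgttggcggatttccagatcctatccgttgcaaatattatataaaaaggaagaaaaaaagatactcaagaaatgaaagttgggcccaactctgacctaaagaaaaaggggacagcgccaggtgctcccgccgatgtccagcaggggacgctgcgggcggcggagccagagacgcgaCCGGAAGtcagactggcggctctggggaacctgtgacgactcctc
Psmb5 and Psmb6 hold TGACNNNGC near the right end and no CCGGAAG in these bases. Psmc1 and Psmd6 hold CCGGAAG, on opposite strands.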

How the data were processed

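Nascent RNA was sequenced in 7 libraries. By the labels and methods, the authors trimmed reads with cutadapt 4.2, aligned them to GRCm38 (mm10) with STAR 2.7.8, kept unique reads and counted these per gene by featureCounts (Subread 2.0.1). The raw and filtered counts were used as deposited, as whole numbers with no normalization. The deposited transformed values were not used. The sources differ on the cycles of pre-amplification. Symbols came from GENCODE M21 for 55227 identifiers, and 260 had none.

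In R 4.3.3, edgeR 4.0.16 (quasi-likelihood test, TMM, terms for embryo number and condition) was fitted to the 10311 genes that pass the authors' filter, with the p-values of Benjamini and Hochberg and a threshold of 0.05. DESeq2 1.42.0 (Wald test) was the alternative, and also needed 10 counts or more in 2 or more replicates of a compared condition. limma 3.58.1 (voom), other scalings and filters, fits with no replicate block and fits without each library were also run. The test code was checked on simulated counts with large changes and far less spread between libraries than these data. That check does not show how the tests perform on these data. The SE of edgeR is the absolute log2 fold change divided by the square root of the F statistic. Log2 CPM used a prior count of 2. Figures were drawn with matplotlib 3.10.9. The embryo number in the labels marks a biological sample that the methods treat as paired. Deviations of libraries of the same number correlated at −0.0854 to 0.0915 (5 pairs), and those of different numbers at −0.0964 to 0.0964. In a condition with 2 libraries the deviations mirror each other, so these values cannot show whether the pairing holds. Where nothing says that libraries came from separate animals, p-values measure only the spread between these libraries.

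The members and lists were chosen with earlier results of these data known. The edgeR log2 fold change and SE are given for the 3 members with the smallest edgeR p in each comparison and those called by either tool. For members called by DESeq2 its values are given too. Levels are given for the catalytic genes, the members found in most and fewest libraries and those whose groups do not overlap. Other members were named after their values were seen.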

Additional observations from a re-analysis of the deposited data

How the results depend on the processing

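edgeR, and limma voom as an alternative to it, called 0 members in each comparison under every run, the fit with no replicate block among them. The main edgeR fit called 0 of all tested genes as well. The calls over all tested genes in the alternative runs are not given here. The counts by DESeq2 did not hold. With no replicate block it called 0 members for compE against the washout, 1 for Fc-JAG1 against the washout and 0 for Fc-JAG1 against compE, where the blocked fits called 1, 4 and 3. The calls over all tested genes fell too, to 325, 388 and 190, and DESeq2 gave Psmg4 no p with compE in that fit. Leaving out each library in turn gave 0 to 5, 1 to 10 and 0 to 8 members beside 23 to 1240, 678 to 1937 and 92 to 1065 of all tested genes, and the highest counts came without washout 2 for compE against the washout and without Fc-JAG1 1 for both others. With TMM factors in DESeq2 the counts were 1, 6 and 4. Of the edgeR fold changes, that of Psma1 for Fc-JAG1 against the washout turned to −0.068 with no replicate block. Leaving out each library gave −4.45 to 0.22 for Psme3 and −0.53 to 11.93 for Psmg4 with compE, −1.04 to 5.57 for Psma1, −0.95 to 8.17 for Psmc1 and −1.83 to 12.54 for Psmd3 with Fc-JAG1 against the washout, and −1.20 to 7.92 for Psmc1 against compE. The median log2 fold change of the members ran from −1.13 to 0.13, −0.69 to 0.75 and −0.49 to 0.70. A fit without a library leaves some conditions with 1 sample, which is assumed to vary like the others. The cause of these shifts was not tested. Libraries held 21652927 counts or more, and the common dispersion between libraries was 2.42.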
